A study of Mus musculus with 2 samples.

Results

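Pericentral hepatocytes are the liver cells next to the central vein, and here they were taken as the hepatocyte barcodes with the highest share of pericentral transcripts. A barcode was kept with at least 10000 unique molecular identifiers (UMIs, each counting 1 captured RNA molecule), at most 30% of UMIs from mitochondrial genes, and at least 2% of UMIs from the 5 hepatocyte genes Alb, Apoa1, Apoa2, Ttr and Serpina1c. Each kept barcode was scored as the UMIs of Cyp2e1 and Cyp1a2 divided by the UMIs of Cyp2e1, Cyp1a2, Cyp2f2 and Hal, the scored barcodes of each library were cut into 3 groups of equal size, and the group with the highest scores was taken. This gave 613 of 1839 scored barcodes in the chow library and 311 of 934 on the NASH diet, 924 of the 13240 deposited barcodes in all. These barcodes are called members below.

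The series compared liver cells of C57BL/6 mice kept on chow with those of C57BL/6 mice kept on a NASH (non-alcoholic steatohepatitis) diet rich in fructose, fat and cholesterol, each for 6.5 weeks. Cells came from collagenase-digested liver separated on Percoll at 90% and 25%, and were sequenced with a 10x Genomics 3' kit. The sources used here give neither the age or sex of the mice nor how many entered a library. With 1 library per diet there is no spread between replicates and no test between diets. Fold changes below describe these 2 libraries, and the 95% intervals cover counting error only.

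The hepatocytes of a liver lobule lie along the path of the blood from the portal vein to the central vein, and their gene expression changes along it. Periportal cells carry out urea synthesis, amino acid breakdown and glucose production. Pericentral cells hold most of the cytochrome P450 enzymes that oxidise drugs and toxins, and start bile acid synthesis. The cells in direct contact with the central vein make glutamine from ammonia through glutamine synthetase (Glul). Wnt signals from the endothelium of the central vein act through beta-catenin and the TCF and LEF transcription factors to set much of the pericentral programme. The pericentral zone is also where fat and injury are often seen first in fatty liver disease.

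Promoter sequences of 3 pericentral genes are shown because the members were chosen by the first 2 and because Slc1a2 followed Glul most closely among the members. Each is the 250 bases before the RefSeq transcription start on mouse genome build GRCm38.p6, written 5′ to 3′ on the gene's own strand (for Slc1a2, which has other starts, this window lies inside the longest span of the gene), and capitals mark CTTTGA, the core of the TCF and LEF motif, or its reverse complement TCAAAG.
Cyp2e1, chr7:140763569-140763818, plus strand: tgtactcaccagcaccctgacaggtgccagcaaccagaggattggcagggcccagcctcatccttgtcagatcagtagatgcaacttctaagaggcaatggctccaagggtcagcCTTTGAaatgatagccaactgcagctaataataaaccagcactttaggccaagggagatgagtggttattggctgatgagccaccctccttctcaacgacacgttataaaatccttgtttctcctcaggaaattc
Cyp1a2, chr9:57683656-57683905, minus strand: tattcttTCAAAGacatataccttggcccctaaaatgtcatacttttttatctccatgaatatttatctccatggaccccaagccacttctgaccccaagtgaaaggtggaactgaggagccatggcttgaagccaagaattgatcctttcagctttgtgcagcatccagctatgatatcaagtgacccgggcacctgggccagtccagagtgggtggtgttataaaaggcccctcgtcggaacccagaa
Slc1a2, chr2:102706188-102706437, plus strand: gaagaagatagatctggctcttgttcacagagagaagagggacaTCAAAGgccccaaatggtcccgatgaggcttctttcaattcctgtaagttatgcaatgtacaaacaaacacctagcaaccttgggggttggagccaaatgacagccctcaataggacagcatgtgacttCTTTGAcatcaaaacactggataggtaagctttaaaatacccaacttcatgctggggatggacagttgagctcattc

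The Cyp2e1 and Cyp1a2 windows each held 1 match, and the Slc1a2 window held 2. The first base of the match lay 135 bases before the start in Cyp2e1, 243 in Cyp1a2, and 206 and 77 in Slc1a2. No match was found in the same window of Glul, Oat or Cyp2f2. A window with at least 1 match was found for 10 of 37 promoters (27.0%) of the genes listed as pericentral, 3 of 16 (18.8%) of those listed as Wnt targets, 5 of 21 (23.8%) of those listed as periportal, and 4544 of all 32851 promoters (13.8%). A gene can have more than 1 promoter, and the 16 Wnt target promoters belong to 10 of the 16 genes listed. A match says only that these letters stand in the window, and the data hold no measure of binding there.

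The score split the hepatocytes into 2 heaps with few barcodes between them. In the chow library 33.0% of scored barcodes had a score of at least 0.9, 53.2% had at most 0.1, and 13.8% lay between. In the NASH diet library the shares were 29.0%, 57.3% and 13.7%. The lowest member score was 0.889 in chow, with the next barcode outside at 0.887, and 0.622 on the NASH diet, with the next outside at 0.618. The same share of barcodes therefore reached further down the score on the NASH diet, and a common threshold of 0.75 gave 654 and 291 members. A score of exactly 1, with no Cyp2f2 or Hal UMI, was found in 423 chow and 187 NASH diet members. Within 0.1 of the threshold lay 143 chow and 31 NASH diet barcodes.

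**Figure D1:**
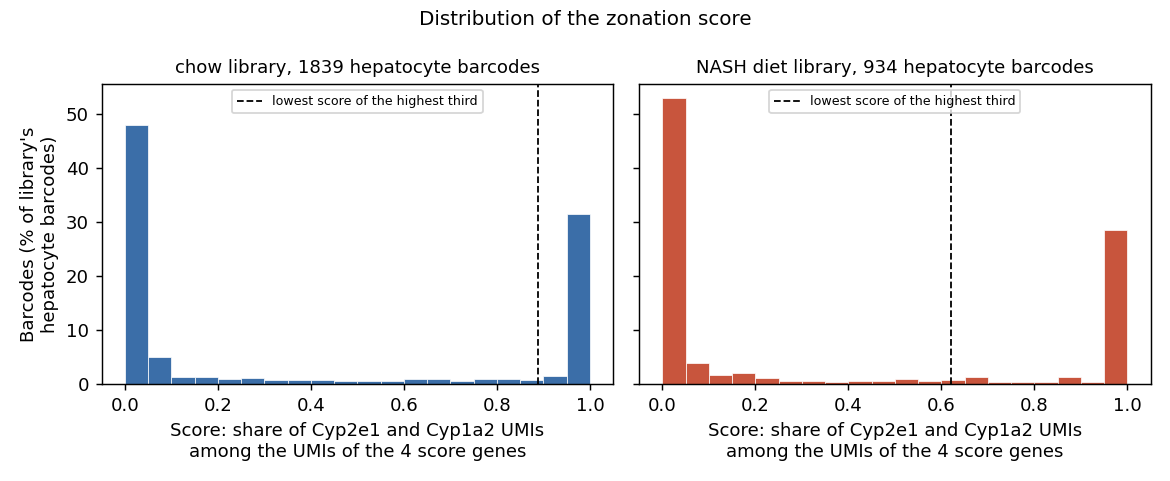
Share of scored hepatocyte barcodes (vertical axis, % of the library) in each 0.05-wide step of the score (horizontal axis), with a dashed line at the lowest score among the members (0.889 in chow, 0.622 on the NASH diet). In both libraries most barcodes sit near 0 or near 1.

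The members of both libraries were of like depth. Their median was 27151 UMIs and 4098 genes in chow and 26131 UMIs and 4169 genes on the NASH diet, with 17050437 and 8446659 UMIs summed. The median mitochondrial share was 20.4% of UMIs in chow and 22.5% on the NASH diet. The lowest-score barcodes differed more, with medians of 27316 and 19042 UMIs and of 17.7% and 24.5% mitochondrial UMIs. Of the barcode sequences, 69 occurred in both libraries, but 0 were members of both. Markers of other liver cells were low among the members, apart from those hepatocytes share. Summed over 20 Kupffer cell and phagocyte genes they reached 17.4 counts per 1000000 UMIs (CPM) in chow and 8.29 on the NASH diet. Over 14 mesenchymal genes the sums were 1.11 and 1.89 CPM. Over 17 endothelial genes they were 47.9 and 84.1 CPM, most of it Dpp4 (42.5 and 65.2), which hepatocytes also express. Without Dpp4 they were 5.40 and 18.8 CPM, and all 17 genes had a log2 ratio above 0, from 0.16 to 1.43, with Stab2 (1.58 and 4.97 CPM) past 2-fold among the 2 with at least 50 UMIs. Over 11 cholangiocyte genes the sums were 470 and 467 CPM, and without Krt8, Krt18 and Tm4sf4 21.5 and 12.1 CPM. Over 6 erythroid genes they were 44.1 and 52.6 CPM, almost all Alas2 (44.1 and 49.0). Doublets were not removed.

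Free RNA gives low counts in every droplet. In barcodes chosen by non-parenchymal markers, 98 in chow and 75 on the NASH diet, with medians of 6168 and 5408 UMIs, Alb stood at 579 and 856 CPM, against 11403 and 18423 in members. Cyp2e1 stood there at 68.2 and 71.0 CPM and Slc1a2 at 6.82 and 10.4. Cyp2f2 and Hal in chow members (10.6 and 9.09 CPM) were below the level in those barcodes (12.3 and 16.4 CPM). On the NASH diet they stood above it, at 104 and 24.2 CPM in members against 22.5 and 8.66 CPM.

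Cyp2e1 and Cyp1a2 mark the pericentral zone, and the score chose the members by them, so their high levels were set in advance. Cyp2e1 (chr7:140763739-140774987 on GRCm38), which oxidises ethanol and other small molecules, had a UMI in all 613 chow members, from 200 to 10842 CPM with a median of 3480. In the NASH diet members it ranged from 44.2 to 9974 CPM with a median of 5288, again with a UMI in all 311. Cyp1a2 (chr9:57676937-57683703), a caffeine- and drug-oxidising enzyme, had medians of 355 and 514 CPM and a UMI in 99.0% and 96.1% of members. These genes and Cyp2f2 and Hal set the score, so their levels are a description and not a finding.

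Genes outside the score followed the same axis, given here as a description since they come from the same cells. A gene was measured with at least 50 UMIs over the groups compared, and called past a 2-fold ratio of CPM with 1 CPM added. Of the 36 pericentral list genes measured in chow and not in the score, 34 were at least 2-fold higher in members than in the lowest-score barcodes. In the NASH diet library this held for 36 of 37. Over all measured genes, 252 of 9774 (2.58%) were 2-fold higher in members in chow and 362 of 8630 (4.19%) on the NASH diet, and 193 (1.97%) and 145 (1.68%) were 2-fold lower. Of the 8592 genes measured for both gradients, 181 (2.11%) were higher in both libraries, 81.9% of the chow calls and 52.6% of the NASH diet calls, and 100 (1.16%) were lower in both. Of these genes, 3 were called in opposite directions, lower in members in chow and higher on the NASH diet: Rgs16, a G protein signalling regulator (-1.55 and 1.51), the chemokine gene Cxcl9 (-1.42 and 1.87), and Cd63, a membrane protein of late endosomes, named after its values were seen.

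Among the steepest was Oat, ornithine aminotransferase, which feeds glutamate into glutamine synthesis, at 1155 CPM in chow members and 10.6 CPM in the lowest-score barcodes, and at 2414 and 10.4 CPM on the NASH diet. The P450 gene Cyp2c29 stood at 1121 against 3.05 CPM in chow and 1078 against 1.65 on the NASH diet. Lect2, a secreted hepatokine, stood at 169 against 2.69 CPM and 278 against 2.48. Gulo, the last enzyme of vitamin C synthesis, stood at 406 against 12.4 CPM and 579 against 6.93.

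At the other end were genes of the periportal zone. Sds, serine dehydratase, had 3.05 CPM in chow members and 281 in the lowest-score barcodes, and 13.4 and 519 on the NASH diet. Ctsc, a lysosomal protease, had 2.35 against 268 CPM and 1.07 against 114. Gls2, the liver glutaminase, had 16.6 against 195 CPM and 17.2 against 263. Of the 26 periportal list genes measured and not in the score, 12 were 2-fold lower in chow members, 17 in NASH diet members, and 0 were higher.

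Glul (chr1:153899944-153909723) was not in the score and split the members into a large group with little of it and a smaller group with much. In chow members it ranged from 0 to 15870 CPM with a median of 103, and in NASH diet members from 0 to 13688 CPM with a median of 171. The upper quartile was 207 CPM in chow and 1270 CPM on the NASH diet. To compare barcodes at 1 depth, each was thinned to 10000 UMIs, and members with at least 5 Glul UMIs are called Glul-rich. Glul-rich members were 78 of 613 in chow, 12.7% (exact binomial interval 10.2 to 15.6), and 101 of 311 on the NASH diet, 32.5% (27.3 to 38.0). Without thinning the shares were 32.3% and 50.5%. With at least 12 Glul UMIs they were 7.50% and 25.7%.

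The difference in share was larger than counting error, but with 1 library per diet it has no replicate check, and how many cells of each zone the digestion and density steps recovered was not measured. Among all scored hepatocytes, Glul-rich barcodes made up 4.40% (3.51 to 5.44) in chow and 11.1% (9.19 to 13.3) on the NASH diet. Of the barcodes with at least 10000 UMIs, 1895 of 2151 in chow and 980 of 1271 on the NASH diet passed the mitochondrial limit. The part of that limit in these shares was not tested. In the lowest-score barcodes 0 of 613 and 0 of 311 were Glul-rich, which allows shares of up to 0.600% and 1.18% (exact binomial). A single Glul UMI told less, since 63.3% and 71.1% of members, but also 29.7% and 16.7% of the lowest-score barcodes, had at least 1. The non-parenchymal barcodes held Glul at 405 and 312 CPM, above the lowest-score hepatocytes at 33.7 and 21.5. That was 61.0% and 12.7% of the level in members, against 5.07% and 4.64% for Alb. How much of this Glul was free RNA was not tested.

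**Figure D2:**
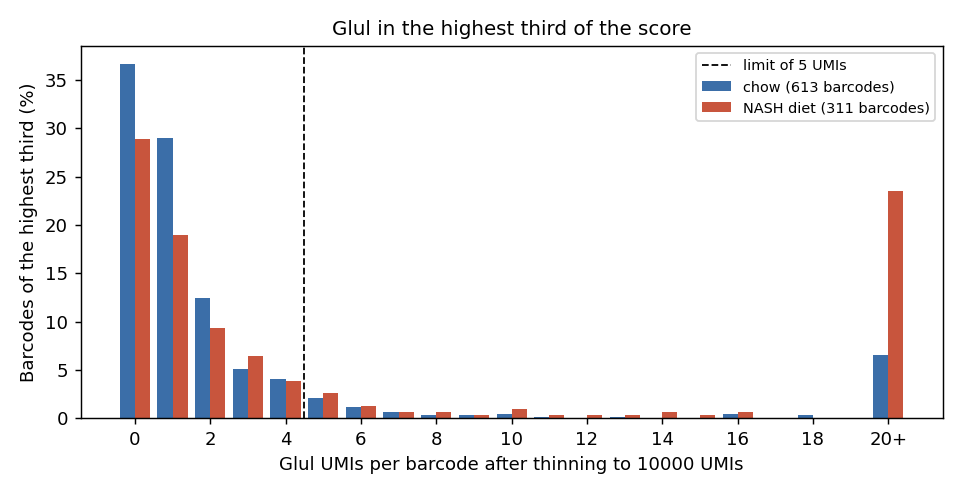
Share of members (vertical axis, %) by number of Glul UMIs after thinning each barcode to 10000 UMIs (horizontal axis, last bar 20 or more), for 613 chow and 311 NASH diet members, with a dashed line at the limit of 5 UMIs. Most members of both libraries lie left of it, and 12.7% of the chow against 32.5% of the NASH diet members lie right of it.

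Depth and mitochondrial share differed between the 2 groups, and their part in the split, beyond the thinning, was not tested. Glul-rich members had medians of 30225 UMIs in chow and 29998 on the NASH diet, and Glul-poor members 26537 and 23812. Their median mitochondrial shares were 18.5% and 20.3%, against 20.6% and 23.8% in Glul-poor members.

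Glul-rich members also carried the other genes of the cells at the central vein. Slc1a2 (chr2:102658659-102790784), which encodes a glutamate transporter, stood at 592 CPM in Glul-rich and 18.8 CPM in Glul-poor chow members, and at 1153 and 48.7 CPM on the NASH diet. Oat stood at 3346 and 803 CPM in chow and 5174 and 827 CPM on the NASH diet. Rhbg, an ammonium transporter, stood at 51.4 and 2.65 CPM in chow and 71.6 and 2.61 CPM on the NASH diet. Cyp2e1 was high in both groups, at 5062 and 3354 CPM in chow and 6158 and 4990 CPM on the NASH diet. Over all measured genes, 66 of 8789 (0.751%) in chow and 82 of 7675 (1.07%) on the NASH diet were 2-fold higher in Glul-rich members.

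Among 7173 genes compared over the members, those whose level followed Glul most closely in both libraries were Slc1a2, with Spearman's rho 0.50 in chow and 0.75 on the NASH diet, Oat (0.41 and 0.71), Serpina7, which encodes thyroxine-binding globulin (0.38 and 0.42), and Slc13a3, a dicarboxylate transporter (0.35 and 0.55). The barcodes of a library share 1 preparation, and Glul also followed their UMI total (0.06 and 0.26) and mitochondrial share (-0.13 and -0.30), so these values describe the libraries.

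Between diets, 328 of 9468 measured genes (3.46%) were at least 2-fold higher in NASH diet members and 226 (2.39%) at least 2-fold lower. The median gene was shifted by 0.13 on the log2 scale. With ratios centred on that median the counts were 238 higher and 278 lower, so the balance of the directions depends on the scaling, with 59.2% higher without centring and 46.1% with it. Log2 ratios below are NASH diet over chow, from CPM with 1 CPM added and without centring. The gene lists were chosen with earlier results of these data known, so their counts are no independent evidence of direction.

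**Figure D3:**
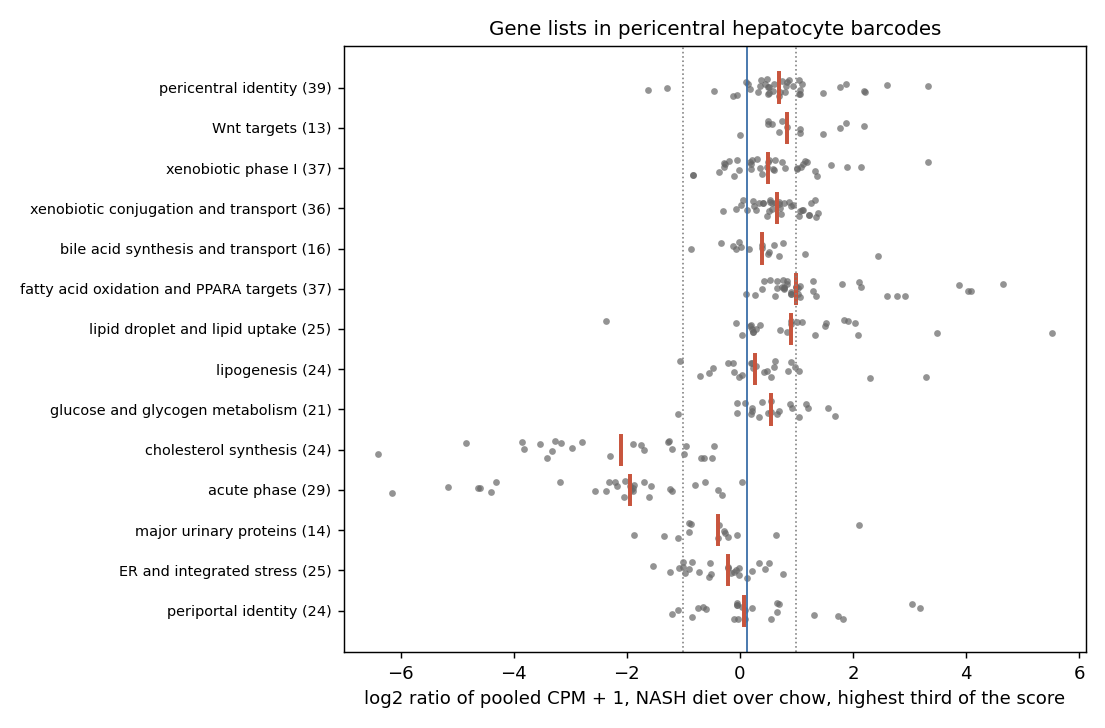
Log2 ratio of NASH diet over chow in members (horizontal axis) for each measured gene (grey points) of 14 gene lists (vertical axis, number of measured genes in brackets), with the list median in red, the median of all genes (0.13) as a blue line and 2-fold ratios dotted. The cholesterol synthesis (-2.10) and acute phase (-1.94) medians lie furthest to the left, and the median of fatty acid oxidation genes (0.99) furthest to the right.

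Pericentral genes were mostly at or above their chow level. Of 39 measured genes of the pericentral list, 12 were 2-fold higher, 2 were 2-fold lower, and the median was 0.69 against 0.13 over all genes. Cyp2e1 (0.59) and Cyp1a2 (0.51), the score genes, stayed under 2-fold. The 12 higher genes were Glul, Slc1a2, Oat and Rhbg, the Wnt targets Sp5 and Rnf43, the enzymes Cyp2a5, Aldh3a2, Gstm2 and Alas1, the nuclear receptor gene Nr1i3 and the cation transporter gene Slc22a3. The 2 lower genes were Avpr1a, the vasopressin receptor (41.2 to 12.7 CPM, -1.63), and Ang, a secreted ribonuclease (1081 to 440 CPM, -1.30). With mitochondrial UMIs limited to 20%, the score groups were cut anew from the barcodes that passed. The new highest-score group held 398 chow and 69 NASH diet barcodes, and 22 pericentral genes were 2-fold higher there. In the members as first cut, the count was 7 with ratios centred on the median gene or with a pseudocount of 10 CPM. It was 6 with the 10% of each library's scored barcodes highest in UMIs left out and the groups cut anew. Several zone markers stayed under 2-fold, among them Cyp2c29 (-0.06), Cyp2c50 (0.35) and Cyp3a11 (0.47).

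Glul itself stood at 665 CPM [95% interval 653, 677] in chow and 2450 CPM [2417, 2483] in the NASH diet members, a ratio of 3.68-fold. The medians of the members, 103 and 171 CPM, lay much closer together. Within Glul-rich members the log2 ratio was 0.65 and within Glul-poor members 0.24, against 1.88 over all members, but these groups were cut by Glul itself, which narrows its ratio within them. With the 10% of each library's scored barcodes highest in UMIs left out and the score groups cut anew, the Glul ratio was 1.15. Slc1a2 stood at 97.9 CPM [93.3, 103] and 452 CPM [438, 466], with a UMI in 16.5% and 36.0% of members, and its ratio was 2.19 over all members, 0.96 in Glul-rich and 1.33 in Glul-poor ones. Oat stood at 1155 and 2414 CPM, with ratios of 1.06, 0.63 and 0.04 in the same order. Rhbg stood at 9.38 and 27.8 CPM, with ratios of 1.47, 0.47 and -0.017.

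Of the 13 measured Wnt target genes, 6 were 2-fold higher and 0 lower, with a median of 0.83. All 6 are also on the pericentral list. Sp5, a transcription factor gene induced by Wnt, stood at 2.99 and 12.6 CPM (1.76), and Rnf43, a Wnt receptor inhibitor, at 7.86 and 17.4 CPM (1.05). The Wnt feedback genes Axin2 (8.03 and 13.6 CPM, 0.69) and Lgr5 (9.74 and 14.1 CPM, 0.49) and the transcription factor gene Tbx3 (49.3 and 88.1 CPM, 0.83) stayed under 2-fold. Over the same 13 genes, 3 were 2-fold higher within Glul-rich and 2 within Glul-poor members, and over the same 39 pericentral genes 5 and 7. Counted over genes with at least 50 UMIs in those members, of which 3.56% and 3.28% were higher among all genes, the Wnt list gave 2 and 1 and the pericentral list 5 and 5. Glul is on both lists and cut the groups, so these counts are a description. The endothelial markers given above, also higher on the NASH diet, were not tested for a part in the Wnt target levels.

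Cyp2a5 and Aldh3a2 differed in both groups. Cyp2a5 (chr7:26835305-26843548), a coumarin- and nicotine-oxidising P450, ranged from 0 to 933 CPM with a median of 0 in chow members, and from 0 to 2374 CPM with a median of 139 in NASH diet members. Pooled, it stood at 31.1 CPM [28.6, 33.9] and 321 CPM [309, 333], a log2 ratio of 3.32, with 2.26 in Glul-rich and 3.23 in Glul-poor members. Aldh3a2, a fatty aldehyde dehydrogenase, had medians of 87.8 and 742 CPM and ratios of 2.60, 1.92 and 2.63.

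Of 37 measured phase I genes, which oxidise or hydrolyse foreign compounds, 12 were 2-fold higher and 0 lower, with a median of 0.50. Besides Cyp2a5 the highest ratios were in Fmo2 (0.94 and 7.58 CPM, 2.15), the carboxylesterase gene Ces1d (60.4 and 227 CPM, 1.89), Por, the electron donor of all microsomal P450 enzymes (142 and 435 CPM, 1.61), and Fmo5 (348 and 902 CPM, 1.37). Por was also higher in the lowest-score barcodes, at 2.13. Of 36 measured conjugation and transport genes, 10 were higher and 0 lower, with a median of 0.65, among them Gstt2 (14.3 and 39.0 CPM) and the transporter gene Slco1a4 (8.09 and 22.1 CPM).

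Genes of fatty acid oxidation and targets of PPARA, the receptor that senses fatty acids, stood higher as a group. Of 37 measured, 17 were 2-fold higher and 0 lower, with a median of 0.99. Cyp4a10 (chr4:115518264-115533649), a fatty acid omega-hydroxylase, ranged from 0 to 868 CPM with a median of 0 in chow members, and from 0 to 3963 CPM with a median of 867 in NASH diet members. Pooled, it stood at 37.4 and 960 CPM, a log2 ratio of 4.65. Its neighbour Cyp4a14 stood at 26.9 and 474 CPM (4.09). The acyl-CoA thioesterase gene Acot1 stood at 9.09 and 147 CPM (3.87), and the peroxisomal thiolase gene Acaa1b at 277 and 2102 CPM (2.92). Ppara itself stood at 37.7 and 93.7 CPM (1.29). Reads of Cyp4a10 and Cyp4a14, and of Acot1 to Acot3, can be shared among near-identical family members, so the separate values are uncertain.

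The ratios were of like size in the lowest-score barcodes, at 4.22 for Cyp4a10, 3.32 for Cyp4a14 and 3.43 for Acaa1b. Within chow, members stood above the lowest-score barcodes for Cyp4a10 (1.60), Cyp4a14 (1.17) and Acot1 (2.51), and the same held on the NASH diet (2.02, 1.95 and 3.28).

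Lpl, lipoprotein lipase, which releases fatty acids from circulating triglyceride, had the highest diet ratio among genes with at least 200 UMIs in the members. Lpl (chr8:68880491-68907448) was found in 2.77% of chow members and in 72.0% of NASH diet members. Its level ranged from 0 to 193 CPM with a median of 0 in chow, and from 0 to 677 CPM with a median of 90.2 on the NASH diet. Pooled, it stood at 1.88 CPM [1.28, 2.65] and 131 CPM [123, 139], a log2 ratio of 5.52. In the lowest-score barcodes it stood at 0.18 and 2.15 CPM. In Glul-rich members it stood at 8.91 and 194 CPM, and in Glul-poor members at 0.75 and 94.2 CPM. Macrophages also express Lpl, and non-parenchymal barcodes held 793 CPM in chow and 320 CPM on the NASH diet. The phagocyte markers summed to 17.4 and 8.29 CPM in members, and their part in the Lpl level was not tested.

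Of 25 measured lipid droplet and uptake genes, 11 were higher and 1 lower, with a median of 0.90. Cidec, which enlarges lipid droplets, stood at 2.99 and 43.7 CPM (3.48), Cd36, a fatty acid uptake receptor, at 36.0 and 156 CPM (2.08), and G0s2, an inhibitor of triglyceride lipase, at 81.8 and 339 CPM (2.04). The lower gene was Fabp5, a fatty acid binding protein (356 and 68.1 CPM, -2.37). Outside the lists, Cfd, which encodes the complement protease adipsin, stood at 1.94 and 77.4 CPM (4.74), with a UMI in 3.59% and 44.4% of members, and the lowest-score barcodes had a ratio of 0.41.

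Lipid synthesis genes differed unevenly. Of 24 measured, 3 were higher and 1 lower, with a median of 0.26. Scd1, which desaturates fatty acids, ranged from 0 to 10627 CPM with a median of 570 in chow members and from 310 to 31439 CPM with a median of 10623 in NASH diet members. Pooled, it stood at 1119 and 10936 CPM, a 9.77-fold ratio. The other higher genes were Thrsp (60.8 and 303 CPM, 2.30) and Pklr (25.5 and 53.6 CPM, 1.05). Acly, which makes cytosolic acetyl-CoA, stood lower, at 86.5 and 41.0 CPM (-1.06). Fasn, fatty acid synthase, named after its value was seen, stood at 76.2 and 90.1 CPM (0.24).

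Cholesterol synthesis genes stood lower. Of 24 measured, 18 were 2-fold lower and 0 higher, with a median of -2.10. Sqle (chr15:59315077-59331192), squalene epoxidase, ranged from 0 to 417 CPM with a median of 104 in chow members, and had 3 UMIs in all NASH diet members together against 1936 in chow. Its log2 ratio without added counts lay between -10.60 and -6.77 by counting error. Idi1, an isoprenoid isomerase, had a ratio of -4.84, Msmo1, a sterol demethylation enzyme, stood at 337 and 23.1 CPM (-3.81), and Hmgcs1, which commits acetyl-CoA units to the pathway, at 596 and 65.7 CPM (-3.16). Sqle had ratios of -6.40 in members and -6.25 in the lowest-score barcodes. With 3 UMIs in NASH diet members, its ratio there depends on the added 1 CPM, and was -3.58 with 10 CPM added. Whether Sqle differed alike at both ends can therefore not be read from these ratios. Hmgcs1 stood further apart in the lowest-score barcodes (-4.91) than in members.

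Bile acid genes gave 2 of 16 higher and 0 lower, with a median of 0.39. Cyp7a1, the rate-limiting enzyme of bile acid synthesis from cholesterol, ranged from 0 to 560 CPM with a median of 0 in chow members, and from 0 to 1120 CPM with a median of 173 in NASH diet members. Pooled, it stood at 47.5 and 263 CPM (2.45). Akr1d1, a later step of the same pathway, stood at 65.0 and 145 CPM (1.15), while Cyp7b1, of the alternative pathway, stood at 608 and 332 CPM (-0.87).

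Acute phase genes, which hepatocytes raise in inflammation, were the list with the most genes at lower levels among the 30 lists. Of 29 measured, 24 were 2-fold lower and 0 higher, with a median of -1.94. The list made up a median of 10.3% of UMIs in chow members and 2.37% in NASH diet members, 101025 and 24550 CPM when pooled. A block of this size also enters the CPM of all other genes. With 1 chow library, whether its acute phase level is usual for chow was not tested. Saa2 (chr7:46751790-46754313), serum amyloid A, ranged from 328 to 57539 CPM with a median of 14155 in chow members, and from 0 to 5423 CPM with a median of 44.3 in NASH diet members. The pooled levels were 14561 and 204 CPM, a log2 ratio of -6.15. Saa1 stood at 12827 and 533 CPM (-4.59), Lcn2, an iron-chelating defence protein, at 1359 and 54.0 CPM (-4.63), and Apcs, serum amyloid P, at 1328 and 65.9 CPM (-4.31). Saa2 (-6.10), Saa1 (-4.63) and Apcs (-4.30) had almost the same ratios in the lowest-score barcodes. Reads of Saa1 and Saa2 can be shared, so their separate values are uncertain.

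Of 21 measured genes of glucose and glycogen metabolism, 5 were higher and 1 lower, with a median of 0.55. Gys2, liver glycogen synthase, stood at 31.2 and 102 CPM (1.68), Slc2a2, the hepatocyte glucose transporter gene, at 80.2 and 238 CPM (1.56), and Pck1, which starts glucose synthesis, at 1856 and 872 CPM (-1.09). In the lowest-score barcodes Pck1 had a ratio of -0.28. Of 25 measured genes of endoplasmic reticulum and integrated stress, 0 were higher and 5 lower, with a median of -0.22. Outside the lists, 2 clock output genes were among the 12 highest ratios, Dbp at 6.16 and 85.4 CPM (3.59) and Usp2 at 1.99 and 45.6 CPM (3.96). The sources used here do not state the time of day at which the livers were taken.

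Of 22 measured periportal genes not in the score, 3 were 2-fold higher in NASH diet members, Hsd17b6 (3.05), Sds (1.83) and Hsd17b13 (1.74), and 2 were lower, with a median of 0.0062. With mitochondrial UMIs limited to 20% and the score groups cut anew, Sds (-2.71) and Hsd17b13 (-1.43) were lower instead. Of the score genes, Cyp2f2 stood at 10.6 and 104 CPM in members, with a median of 0 in both libraries and a highest barcode of 280 CPM in chow and 2259 CPM on the NASH diet. It is part of the score, whose lowest member value was 0.889 in chow and 0.622 with the diet, so no finding is read from it. With a minimum of 20000 UMIs and the score groups cut anew, the Cyp2f2 ratio was -0.39 in the highest-score barcodes. Glul-rich members had 3.82 and 7.46 CPM of Cyp2f2.

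The genes called between diets at the 2 ends of the score overlapped in part. Of 9010 genes measured in members and in the lowest-score barcodes, 263 were 2-fold higher with the NASH diet in members and 211 in the lowest-score barcodes (2.52% of the genes measured there were higher and 3.03% lower), with 139 in common, 52.9% of the former and 65.9% of the latter. Of the 210 lower in members and the 253 lower in the lowest-score barcodes, 161 were in common, 76.7% and 63.6%. No gene was called in opposite directions. Whether a ratio differed between the ends was not tested, since each end has 1 library per diet.

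Some genes had larger ratios in members. Glul had 1.88 in members, -0.83 in the middle group and -0.63 in the lowest-score barcodes. Cyp3a11, a major drug-oxidising P450, had 0.47 in members and -1.90 in the lowest-score barcodes, at 2200 and 3057 CPM against 289 and 77.1 CPM. Ang (-1.30) and Rnase4 (-0.42), ribonuclease genes that overlap on the same strand, stood at -3.55 and -2.99 in the lowest-score barcodes. Their gradient was thus steeper on the NASH diet (3.53 and 3.60) than in chow (1.28 and 1.03). Tsc22d1, a transcription regulator, had 2.44 in members and 0.68 in the lowest-score barcodes.

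Others had ratios further from 0, or higher, in the lowest-score barcodes. Cd36 stood at 1.13 and 39.4 CPM there, a ratio of 4.24 against 2.08 in members. Mt2, a metal-binding metallothionein gene, stood at 2293 and 148 CPM in members (-3.94) and at 3038 and 567 CPM in the lowest-score barcodes (-2.42). Mt1 (-2.45 and -1.17) and Hamp, the iron hormone hepcidin (-2.17 and -1.05), had the same order. Within the NASH diet members Mt2 also differed between the Glul groups, at 31.8 CPM in Glul-rich and 215 CPM in Glul-poor members. In chow the values were 1571 and 2409 CPM.

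**Figure D4:**
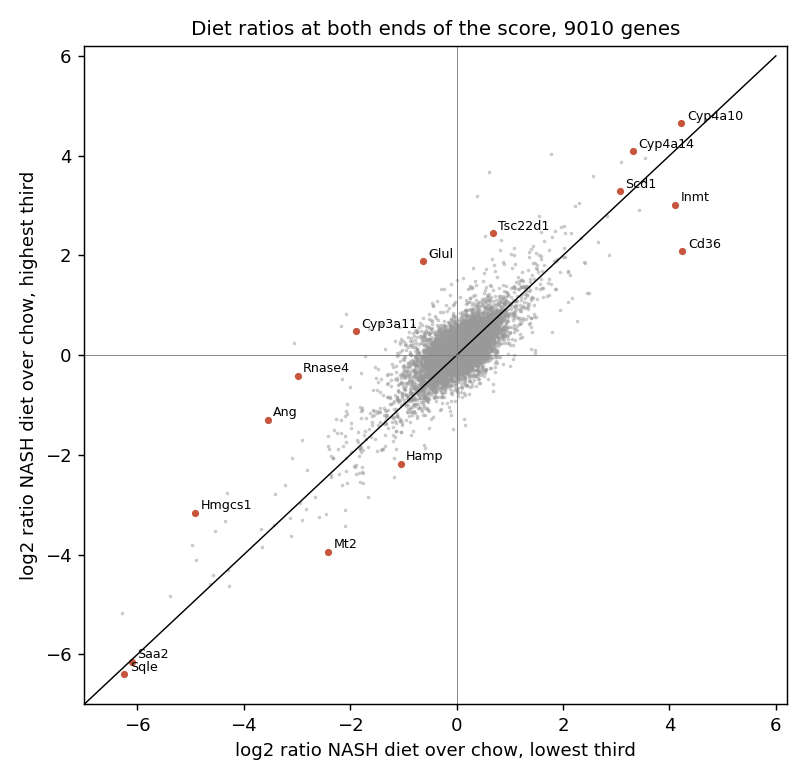
Log2 ratio of NASH diet over chow in members (vertical axis) against that in the lowest-score barcodes (horizontal axis) for 9010 genes measured at both ends, with the line of equal ratios and named genes in red. Saa2, Sqle and Scd1 lie near the line, Glul, Cyp3a11, Ang and Rnase4 above it, and Cd36, Mt2 and Hamp below it. The place of Sqle depends on the added 1 CPM.

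Levels were also taken along 10 bins of the score rank, of which the first 5 hold only scores of at most 0.1. Oat on the NASH diet stayed between 9.1 and 21.6 CPM in bins 1 to 6, reached 82.0 CPM in bin 7 and 1904 CPM in bin 8. In chow it stood at 33.0 CPM in bin 6, 192 CPM in bin 7 and 965 CPM in bin 8. Lpl on the NASH diet stayed at or below 5.7 CPM through bin 7 and stood at 130, 106 and 174 CPM in bins 8 to 10. In chow it was at most 3.7 CPM in any bin. Mt2 on the NASH diet stood between 529 and 686 CPM in bins 1 to 7 and at 198, 89.1 and 58.0 CPM in bins 8 to 10.

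Bins 9 and 10 hold only barcodes with a score of 1, which were ordered by their number of score-gene UMIs. Their median depth was 22833 and 31992 UMIs in chow and 19873 and 35809 UMIs on the NASH diet, and their levels cannot be told apart from that ordering. Glul stood at 216 and 1254 CPM there in chow and at 1589 and 3801 CPM on the NASH diet. At the low end, 532 of 613 lowest-score barcodes in chow and all 311 on the NASH diet had a score of 0. These were ordered in the same way, and on the NASH diet 25 more barcodes with a score of 0 fell in the middle group by that ordering.

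**Figure D5:**
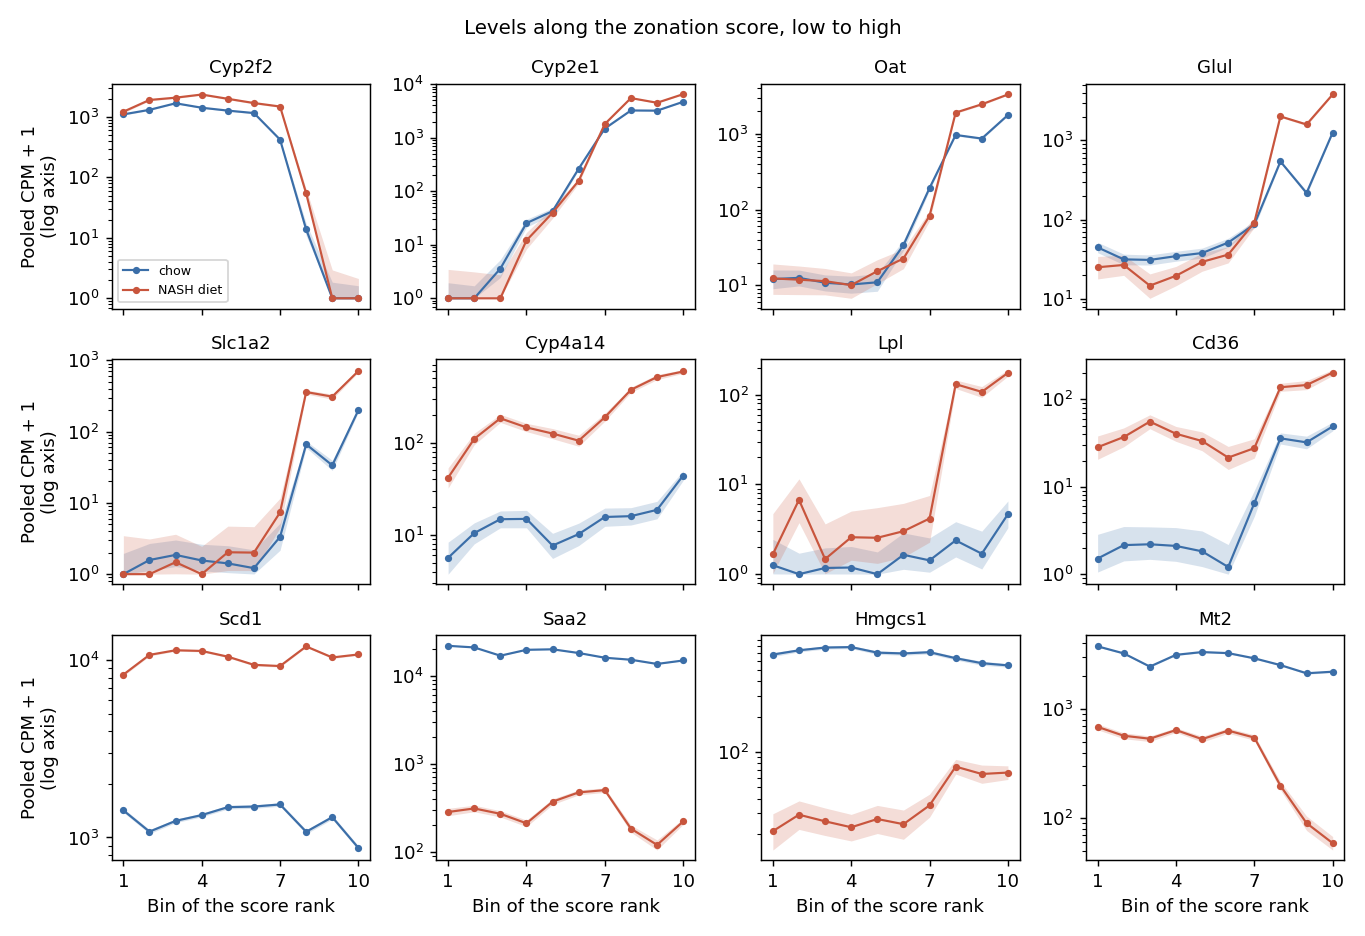
Pooled level (vertical axis, CPM + 1, log axis) of 12 genes in 10 bins of the score rank (horizontal axis, low to high) in the chow (blue) and NASH diet (red) library, with shaded 95% counting intervals. Oat, Glul and Slc1a2 reach their highest levels in bins 8 to 10 in both libraries and Lpl on the NASH diet, while Saa2 and Scd1 are separated by diet in every bin.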

How the data were processed

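The deposited matrices hold UMI counts as whole numbers, not normalized, which the authors made with Cell Ranger, version 3.0.2 per the file headers and 3.1.0 per the submitters' processing notes, which also name the mm10 build. The 2 libraries' own matrices were used. Members, score groups and gene lists were chosen with earlier results of these data known. UMIs were summed over the barcodes of each group and library, scaled to CPM, and compared as log2 ratios with a pseudocount of 1 CPM. Genes with at least 50 UMIs in the groups compared were measured, and those past a 2-fold ratio were called. CPM intervals are exact Poisson and shares exact binomial (Clopper-Pearson), at 95%, covering counting error only. A ratio's interval is conditional binomial, without the pseudocount. No test was run, since each diet has 1 library.

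Genes were named by rule: the score genes and markers, up to 5 genes per list with the largest ratio, the 12 highest and lowest ratios between diets and between score groups, the 10 whose diet ratio differed most between the ends in each direction, and every called gene of the pericentral and Wnt lists. The fixed zone markers and the genes most like Glul were added. Genes labelled as other cells or RNA quality were used as checks. Tied scores were ordered by the UMIs of the score genes. Glul shares used 1 random thinning to 10000 UMIs. Doublets were not removed. Positions are from GENCODE M21 on GRCm38, in which 30934 of 31053 gene IDs (99.6%) were found, and promoters from RefSeq. Of the 40 pericentral genes 32, of the 16 Wnt target genes 10 and of the 28 periportal genes 17 had a promoter entry. Columns left unmatched to a sample numbered 0. Near-identical family members (Saa, Mup, Cyp4a, Cyp2c, Acot) can share reads. The functions were tested on simulated data. Analysis used Python 3.11.15, numpy 2.4.6, scipy 1.17.1, pandas 2.3.3 and matplotlib 3.10.9. Alternatives covered depth, mitochondrial limit, matrix, thinning, pseudocount, scaling, score threshold, gene filter and Glul class.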

Additional observations from a re-analysis of the deposited data

Results flagged for a closer look

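Genes were listed here when their diet ratio, NASH diet over chow, was past 2-fold at one end of the score and at least 0.5 on the log2 scale in the opposite direction at the other, among genes with at least 200 UMIs. Of these, 3 were found, and the difference between the ends was not tested. Glul had a log2 ratio of 1.88 in members and -0.63 in the lowest-score barcodes, at 665 and 2450 CPM against 33.7 and 21.5 CPM. The lowest-score values rest on 564 and 130 UMIs and stood below the level in non-parenchymal barcodes (405 and 312 CPM). How much of the Glul in those barcodes was free RNA was not tested. Cyr61, which encodes a matrix-associated protein, had 0.56 and -1.09, at 40.8 and 60.4 CPM in members against 14.1 and 6.11 CPM. Fosb, an immediate early transcription factor gene, had 0.62 and -1.43, at 11.6 and 18.4 CPM in members against 18.2 and 6.11 CPM. The NASH diet values of Cyr61 and Fosb in the lowest-score barcodes rest on 37 UMIs each. Of 21 measured immediate early and dissociation stress genes, 0 were 2-fold higher and 2 lower in members, and 0 higher and 10 lower in the lowest-score barcodes.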

How the results depend on the processing

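Of 18 other settings, 15 were planned and 3 were chosen after seeing the data, as was the limit of 12 Glul UMIs. Of 76 genes compared across the settings and past 2-fold between diets, 71 kept their direction in all settings in which they had a value and 51 also kept the call. The values below are those that moved, and their causes were not tested. Where the mitochondrial or UMI limit changed, or barcodes were left out, the score groups were cut anew from the barcodes kept. With mitochondrial UMIs limited to 20%, the highest-score group held 398 chow and 69 NASH diet barcodes. There 357 genes were 2-fold lower between diets, and 22 pericentral genes were higher with the diet. In both libraries 46 genes were lower there than in the lowest-score barcodes. The same limit gave negative ratios for Cyp2f2 (-6.85), Hal (-4.94), Sds (-2.71) and Hsd17b13 (-1.43). With at least 20000 UMIs Cyp2f2 (-0.39), Hal (-0.80) and Sds (-0.12) turned negative, as did Sds with a common score threshold or in the 10% of barcodes with the highest score (both -0.069) and Rhbg in Glul-poor members (-0.017). A pseudocount of 10 CPM gave 131 genes higher and 115 lower between diets, 94 and 48 along the score in both libraries, and 7 pericentral and 3 Wnt genes higher. Centring on the median gene gave 7 pericentral genes. Without the 10% of each library's scored barcodes highest in UMIs, 6 pericentral and 3 Wnt genes were higher. Glul-rich members gave 146 lower genes and 5 pericentral, 2 Wnt, 7 lipid droplet and 6 phase I genes higher, and Glul-poor members 5 pericentral genes and 1 Wnt gene. The Glul-rich shares were 32.3% and 50.5% without thinning and 7.50% and 25.7% at 12 UMIs. Counts of fatty acid oxidation, cholesterol synthesis and acute phase genes stayed within 1.5 times in every setting. No paired analysis was possible because each diet has 1 library, and for the same reason no replicate could be left out.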
